A study of Mus musculus with 4 samples.

Results

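The axon guidance genes described here are 53 protein-coding genes of the Slit, Robo, ephrin, Eph receptor, semaphorin, plexin, neuropilin and netrin families, together with the netrin receptors Dcc and Unc5. They were given as a list of names, all 53 were found by symbol, and they stand among 21887 protein-coding genes of the mouse assembly GRCm38. Binding of NKX2.2, a homeodomain transcription factor of the endocrine pancreas, had been mapped by ChIP-seq, in which DNA held by a factor is pulled down with an antibody and sequenced, in alphaTC6 cells. These are a mouse line of pancreatic alpha cells, which make glucagon, and they are labelled wild type, with no treatment named. The 4 samples were 2 labelled NKX2.2 ChIP and 2 labelled Input, the control DNA taken without the antibody step. The data are a single list of 7384 summits covering the series, each the point within a peak where the enrichment was highest. A gene was counted as having a summit when a summit lay inside it or within 10 kb of either end. Each summit has 1 score, read here as the −log10 q-value from the MACS2 peak caller, since the list has no header. It ran from 2.03 to 1648 with a median of 13.7 over the 7380 summits on assembled chromosomes. The list gives no value per library, so depth is unknown, no value below has a replicate error, and no difference was tested. It holds no expression values either, so neither the alpha cell label nor the activity of any gene could be checked. A missing summit means that no peak was called at this depth, not that NKX2.2 was absent.

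Axon guidance genes encode cues and the receptors that read them, and they steer growing axons towards or away from a source. Slits are secreted ligands of the Robo receptors. Ephrins are membrane-bound ligands of the Eph receptor tyrosine kinases. Semaphorins signal through plexins, the secreted class 3 members mostly with neuropilins as co-receptors, and netrins signal through Dcc and the Unc5 receptors. The same systems are used outside the nervous system: contact between islet cells through ephrin-A and EphA proteins modulates insulin secretion, and Slit and Robo proteins take part in islet architecture.

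A summit lay at 17 of the 53 genes, a share of 32.1%, while 25.8% of all protein-coding genes had a summit by the same count. These 17 genes had 26 different summits between them, and a single summit lay within reach of both Efna3 and Efna4. The other 36 genes had none. Summits at the start of a gene were found at 3 of the 53 genes, Unc5c, Epha7 and Efna1, which is 5.66% against 10.8% of all protein-coding genes (a summit within 1 kb of the gene start, or of either end where the tables give no strand). Of the 26 summits, 23 lay inside a member, 14 were over 10 kb from both ends of the gene, and 11 were over 20 kb from both. These counts have no background here, and the members are long, as given below.

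The start regions of these 3 genes are shown because a summit lay inside an annotated promoter window or within 500 bp of it. They are the only such genes among the 44 members that have an entry in the promoter table. Each run has 250 bases before the start of a listed transcript and 30 bases after it, from RefSeq on GRCm38.p6, in the direction of the gene. Capitals mark AAGTG or its reverse complement CACTT, the core bound by NKX2 family factors, and CACCC or its reverse complement GGGTG, the core bound by Krüppel-like factors (KLF).
Unc5c, chr3:141465314-141465593, plus strand: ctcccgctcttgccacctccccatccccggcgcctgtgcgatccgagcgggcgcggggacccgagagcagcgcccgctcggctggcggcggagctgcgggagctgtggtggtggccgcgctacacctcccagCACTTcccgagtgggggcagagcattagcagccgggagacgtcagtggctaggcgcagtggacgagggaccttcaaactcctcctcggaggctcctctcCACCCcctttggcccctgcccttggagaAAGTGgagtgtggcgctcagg
Epha7, chr4:28812881-28813160, plus strand: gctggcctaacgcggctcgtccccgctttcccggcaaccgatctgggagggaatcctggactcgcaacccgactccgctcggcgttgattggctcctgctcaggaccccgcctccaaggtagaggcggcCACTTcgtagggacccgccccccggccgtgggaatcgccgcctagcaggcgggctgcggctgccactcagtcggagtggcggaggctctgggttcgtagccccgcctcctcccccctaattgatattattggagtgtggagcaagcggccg
Efna1, chr3:89280922-89281201, minus strand: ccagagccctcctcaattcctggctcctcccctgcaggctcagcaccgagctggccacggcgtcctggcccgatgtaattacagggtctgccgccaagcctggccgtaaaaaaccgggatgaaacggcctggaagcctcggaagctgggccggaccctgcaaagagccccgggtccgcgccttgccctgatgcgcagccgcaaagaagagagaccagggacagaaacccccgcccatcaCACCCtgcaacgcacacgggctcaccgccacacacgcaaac

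In Unc5c, a netrin receptor gene, the summit at position 141465565 of chromosome 3 fell 1 base after the listed start, on base 252 of the run. The window held 2 matches of the NKX2 core, at bases 133 to 137 and 260 to 264, and the centre of the second was 10 bases from the summit. A KLF core lay at bases 232 to 236, its centre 18 bases from the summit, inside a match of the longer KLF form CCNCNCCC, which matched once more at bases 49 to 56. In Epha7, which encodes an EphA receptor, the summit at position 28812908 of chromosome 4 fell on base 28 of the run, 223 bases before the listed start. The Epha7 window held 1 NKX2 core, at bases 130 to 134, 2 matches of CCNCNCCC, at bases 144 to 151 and 237 to 244, and no CACCC or GGGTG. In Efna1, an ephrin-A gene, the summit at position 89280840 of chromosome 3 lay 111 bases inside the gene and 62 bases beyond the 300-base promoter window. That window held 1 KLF core, at bases 240 to 244, 1 match of CCNCNCCC, at bases 228 to 235, and no NKX2 core. None of the 3 windows held TNAAGTG, an extended NKX2-2 form.

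These letters are common in promoters. Searched on both strands of all 32851 promoter windows of the same 300-base length, AAGTG matched in 46.4%, TNAAGTG in 11.5%, CACCC in 57.5% and CCNCNCCC in 49.5%. Among the 1624 windows with a summit inside, the shares were 45.1%, 9.05%, 63.4% and 70.3%. A match is a run of letters and does not show that a factor was bound there.

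The members are long, with a median length of 146.9 kb against 17.2 kb over all protein-coding genes, and long genes hold more summits. The members were therefore set beside all protein-coding genes of like length. Of 16 members from 100 to 300 kb, 7 had a summit, and 40.1% of all genes in that class had one. Of 15 members of 300 kb and over, 7 had a summit, against 47.8% of all such genes. Taken as 1 class, the members of 100 kb and over had a summit in 14 of 31 cases, 45.2%, against 41.8% of all genes that long. Among long genes, the members' share was thus close to that of other genes.

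**Figure D1:**
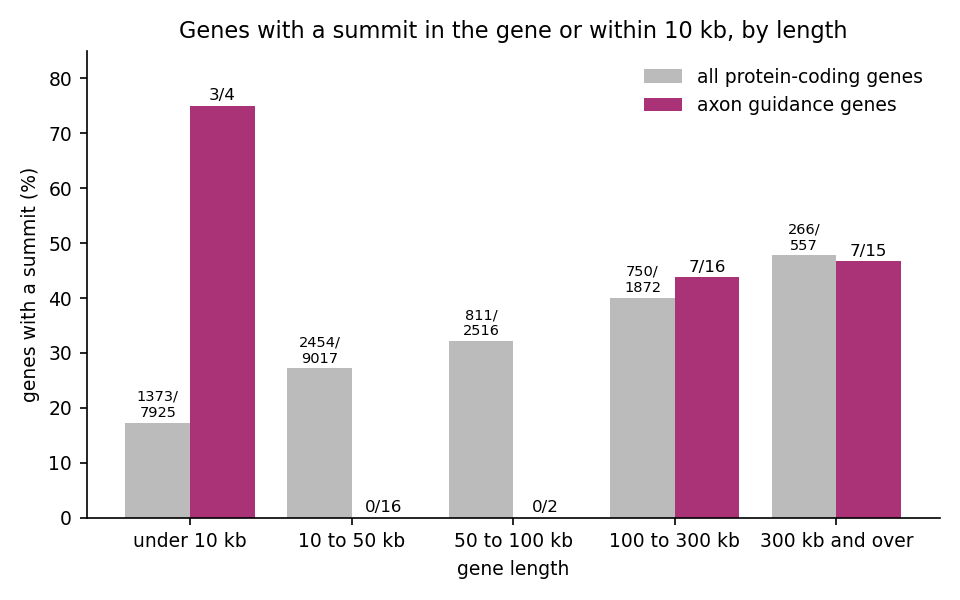
Share of genes with a summit in the gene or within 10 kb, in percent, for all protein-coding genes (grey) and the axon guidance genes (purple) in 5 classes of gene length. The fractions above the bars give genes with a summit over genes in the class; the purple bars are near the grey ones from 100 kb upwards, at 0 between 10 and 100 kb, and higher under 10 kb, where they stand for 3 of 4 genes.

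The shorter members departed from this in both directions. None of the 16 members from 10 to 50 kb and neither of the 2 members from 50 to 100 kb had a summit, while 27.2% and 32.2% of all genes in these classes did. For the range from 10 to 100 kb as a whole the background was 28.3%. This absence depended on the window. Within 20 kb, a distance chosen after the values were seen, 6 of the 18 members had a summit, 33.3%, against 34.3% of all genes of that length. Of these 18 genes 4 are on chromosome 9, where 17.5% of all protein-coding genes had a summit, and that chromosome's part in the count was not tested. Of the 4 members under 10 kb, 3 had a summit, Efna1, Efna3 and Efna4, against 17.3% of all genes that short. These 3 genes are close neighbours on chromosome 3, and Efna3 and Efna4 were counted on the same summit, so they are not 3 separate observations.

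The ephrin and Eph genes encode paired ligands and receptors. A summit lay at 4 of 7 ephrin genes, whose median length is 9.22 kb, and 3 of these 4 are the chromosome 3 neighbours, 2 of them with the same summit. A summit lay at 2 of 13 Eph receptor genes, 15.4%, whose median length is 147.9 kb. Among all protein-coding genes 25.8% had one, with 17.3% under 10 kb and 40.1% from 100 to 300 kb, and the difference between the families was not tested. Efna5 (gene ID 13640, chr17:62602957-62881317), which encodes ephrin-A5, a ligand anchored in the membrane by a lipid tail, had 4 summits. Its highest, at 62652654 within the gene, scored 48.0, the top score of all 26, and ranked 933 of the 7384 summits. A second summit with a score of 4.96 lay 3.17 kb from it, at 62655828. The third, at 62607552, had a score of 9.53, and the fourth, at 62883060 with a score of 4.32, lay 1.74 kb before the gene start. The 3 weaker scores were all below the median of the list, so the gene's prominence rests on 1 summit.

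Efna1 had the summit described above, with a score of 13.1. The summit counted for Efna3 and Efna4, at position 89328843, had a score of 5.45. It lay 5.90 kb before the start of Efna3 and 4.55 kb past the end of Efna4. The long noncoding RNA genes Gm15998 and Gm34118 were also within 10 kb of it. Efna2 and the ephrin-B genes Efnb2 and Efnb3 had no summit, so every ephrin summit was at an ephrin-A gene. Of the receptors, Epha7 had its start summit with a score of 16.4 and another, at 28815048, with a score of 4.31, which lay 2.14 kb away. Ephb2, which encodes an EphB receptor, had a summit at 136742850 of chromosome 4 with a score of 15.7, near the middle of the gene and 93.5 kb from its start. The remaining Eph receptor genes, Epha1, Epha2, Epha3, Epha4, Epha5, Epha6, Epha8, Ephb1, Ephb3, Ephb4 and Ephb6, had none. Epha5 and Ephb1 are both over 300 kb long, and from each the nearest summit was 1339 kb away.

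In the netrin system a summit lay at 3 of 7 genes, 42.9%. Their median length is 177.5 kb, and 40.1% of all genes from 100 to 300 kb had a summit. Ntn4 (gene ID 57764, chr10:93641049-93745972) encodes netrin-4, a secreted protein of basement membranes, and it had 4 summits in 104.9 kb. The first, at 93643638, had a score of 20.7 and lay 2.59 kb after the gene start. The other 3 lay together near the end of the gene, at 93730093, 93736420 and 93741652, with scores of 8.37, 20.7 and 17.6 and gaps of 6.33 and 5.23 kb. Ntn4, at the short edge of the class of 100 kb and over, had 3.20 summits per 100 kb of gene and window. The pooled value was 0.598 over all genes under 100 kb and 0.293 over those of 100 kb and over. At least 4 summits lay at 4.57% of all genes of 100 kb and over. Among the members of that length Sema6a followed with 1.37, and the short genes Efna4, Efna3 and Efna1 had 4.06, 3.44 and 3.42 on 1 summit each. Dcc (gene ID 13176, chr18:71253613-72351228), which encodes the attractive netrin receptor, had a single summit, at 71592156 with a score of 37.7. It ranked 1280 in the list and lay 338.5 kb from the nearer end of the gene. Unc5c, a receptor linked to repulsion, had its start summit with a score of 11.0. Ntn1, Unc5a, Unc5b and Unc5d had no summit, and at Unc5d the nearest was 1604 kb away.

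In the Slit and Robo system none of the 3 ligand genes Slit1, Slit2 and Slit3 had a summit. Of the 4 receptor genes 2 had one, both in the class of 300 kb and over, where 47.8% of all genes had one, and the difference between ligands and receptors was not tested. Robo2 (gene ID 268902, chr16:73891976-75447443) is the longest member at 1555 kb. It had summits at 74196779 with a score of 29.3 and at 74280982 with a score of 12.8, which lay 84.2 kb apart. Both were over 300 kb from either end of the gene, and the nearest listed transcript start of Robo2 was 215.0 kb from the first and 130.8 kb from the second. Robo1, 1020 kb long, had a summit at 72778776 of chromosome 16 with a score of 7.18. Robo3 and Robo4 are neighbours on chromosome 9, and neither had a summit within 500 kb.

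Of the 10 semaphorin genes 4 had a summit, 40.0%, at a median length of 180.6 kb, which is level with the 40.1% of all genes from 100 to 300 kb. Sema6a, which encodes a transmembrane semaphorin, had summits at 47368927 of chromosome 18 with a score of 24.1 and at 47250623 with a score of 5.99, each under 6 kb from an opposite end of the gene. Sema4d, a transmembrane member also active in immune cells, had a summit at 51777382 of chromosome 13 with a score of 13.4. Sema3a, the secreted class 3 semaphorin known for growth cone collapse, had a summit at 13529457 of chromosome 5 with a score of 12.7. The summit at Sema6d, at 124610308 of chromosome 2, had a score of 4.89. Sema3c, Sema3d, Sema3e, Sema3f, Sema4a and Sema5a had none. Of the 9 plexin and neuropilin genes, which encode the semaphorin receptors, 2 had a summit, 22.2%. Their median length is 115.4 kb, and 25.8% of all genes and 40.1% of those from 100 to 300 kb had one. Plxna4 had summits at 32570774 and 32224177 of chromosome 6, with scores of 17.0 and 4.47. Nrp2 had a summit at 62767426 of chromosome 1 with a score of 8.87. No summit lay at Plxna1, Plxna2, Plxnb1, Plxnb2, Plxnc1, Plxnd1 or Nrp1, and at Nrp1 the nearest was 1303 kb away. Over all families, 9 of 22 ligand genes, 40.9%, and 8 of 31 receptor genes, 25.8%, had a summit, beside 25.8% of all protein-coding genes. The ligand count includes the neighbours Efna1, Efna3 and Efna4, with Efna3 and Efna4 on the same summit. The groups were not matched for length, and the difference was not tested.

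**Figure D2:**
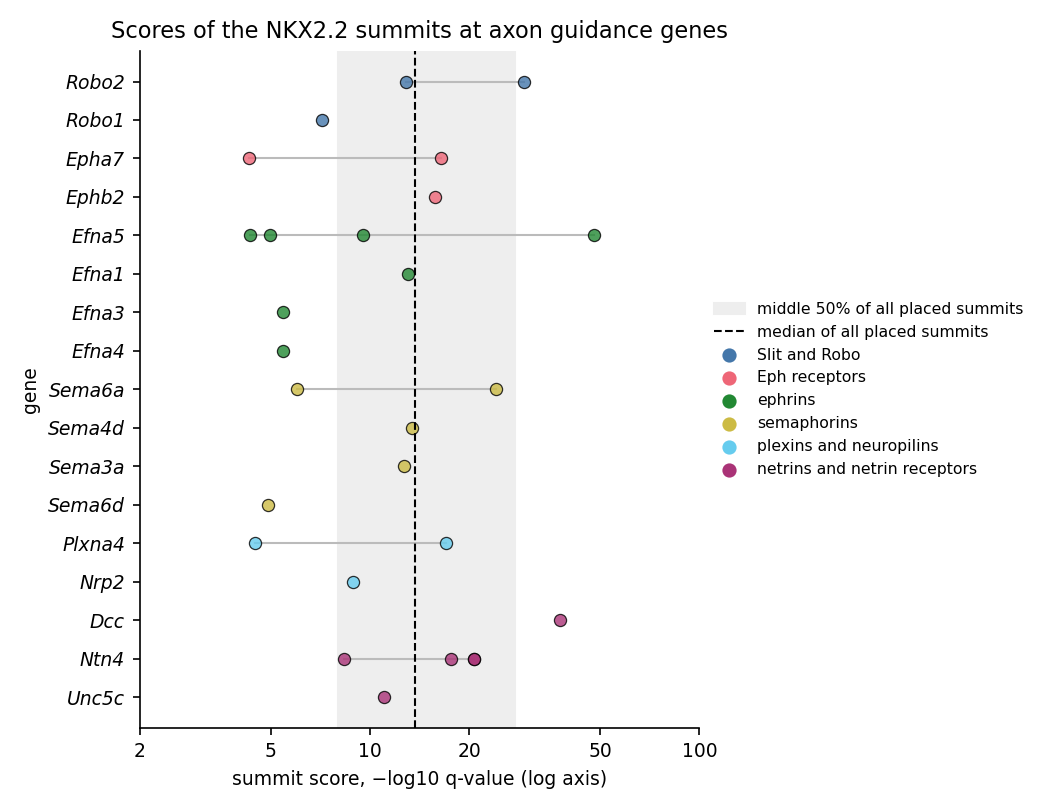
Score of each summit, read as −log10 q-value, on a log axis, at the 17 axon guidance genes with a summit, coloured by family. The grey band is the middle 50% of all placed summits and the dashed line their median of 13.7; of the 26 summits, 3 lie above the band, at Efna5, Dcc and Robo2, and at Ntn4 2 points of 20.7 lie over each other.

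Scores at the members were of middling height for the list. Their median was 12.8, against 13.5 over the 5674 summits at protein-coding genes, and they ran from 4.31 to 48.0. Of the 26 summits, 10 were at or above the median of all placed summits, which 50% of those summits reach. At or above the upper quartile of 27.7 were 3. Both shares were lower than in the whole list, and the difference was not tested. The 3 highest were single summits of Efna5, Dcc and Robo2, a ligand and 2 receptors of 3 different systems. Of all placed summits 931, or 12.6%, scored higher than the highest member summit.

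More than 1 summit was counted at 6 members, Efna5, Ntn4, Epha7, Robo2, Plxna4 and Sema6a, which is 11.3% against 6.79% of all protein-coding genes. All 6 are over 100 kb long. Among genes of 100 kb and over, 19.4% of the members and 19.0% of all genes had at least 2 summits. At least 4 summits were counted at 2 members, 3.77% against 0.745% of all genes. In the class of 100 kb and over this was 6.45% of the members against 4.57% of all genes. The length of the genes thus went along with most of the apparent surplus of multiple summits.

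Counted per length, summits were sparser at the members than at other genes. Their genes and 10 kb windows covered 13.8 Mb with 1.88 summits per Mb, while those of all protein-coding genes held 4.40 summits per Mb, a ratio of 0.427. Long genes have fewer summits per Mb. With genes of 100 kb and over on both sides the values were 1.87 and 2.93 summits per Mb, a ratio of 0.639. Lengths still differed within that class: 15 of the 31 members in it were 300 kb and over, against 557 of 2429 genes. Against all protein-coding genes whatever their length, the 53 genes had a higher share with a summit and a lower density of summits. Among genes of 100 kb and over the shares were close, 45.2% of the members against 41.8%, and the density was still lower. No single share matched for length was computed over all 53. By family, with no test of the differences, the density was 0.792 per Mb for Slit and Robo genes, 1.01 for Eph receptor genes, 1.93 for semaphorins, 2.18 for plexins and neuropilins and 2.31 for netrins and their receptors. It was 12.2 for the ephrins, whose 0.493 Mb held 6 summits, 4 of them at Efna5. Over all protein-coding genes the density was 5.98 per Mb under 100 kb and 2.93 at 100 kb and over. The family values are not matched for length.

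Most member summits were away from gene ends. Inside a member lay 23 of the 26, and 14 were over 10 kb from both ends of the gene, counts that have no background here. Within 1 kb of the boundary of any protein-coding gene lay 3 of them, 11.5%, against 38.0% of the 5674 summits at protein-coding genes. At protein-coding genes of 100 kb and over the share was 15.6%, so summits away from gene ends were common in long genes in general. For the long members taken alone, 2 of 31 had a summit at the gene start, against 9.59% of all genes of that length. Exons and introns could not be told apart here, since the gene table gives the ends of each gene and no exons.

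**Figure D3:**
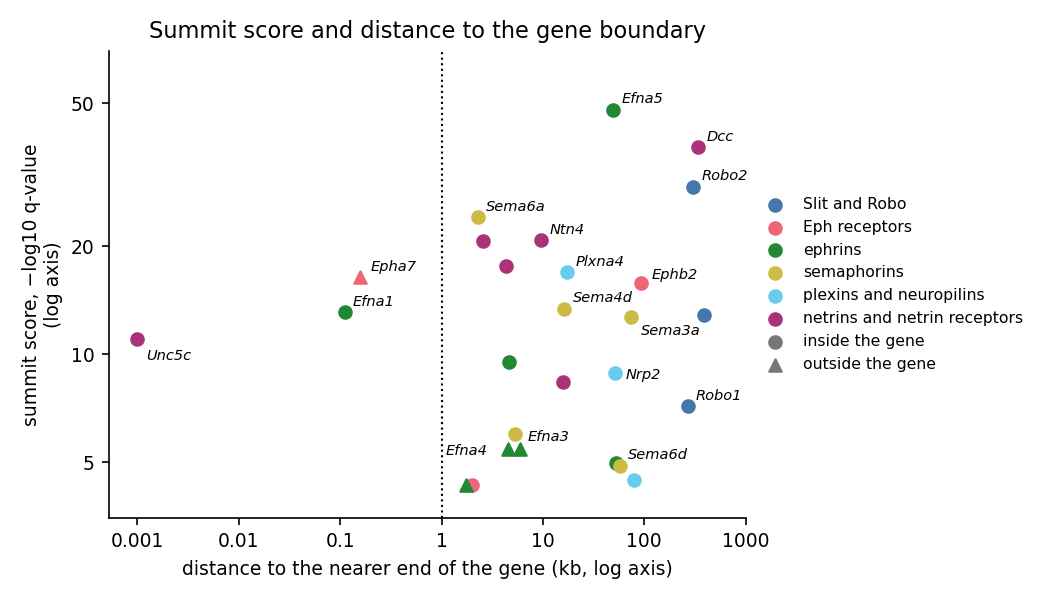
Score of each summit, read as −log10 q-value, against its distance to the nearer end of the member gene in kb. Both axes are log axes, with circles for summits inside the gene and triangles for those outside. The dotted line marks 1 kb; the summits of Unc5c, Efna1 and Epha7 lie left of it with scores of 11.0 to 16.4, and the 3 highest scores, at Efna5, Dcc and Robo2, lie over 49 kb from a gene end. The shared summit of Efna3 and Efna4 is drawn for each gene, and the highest summit of each gene carries its name.

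Where the promoter table gave the strand, summits lay more often in the later part of the gene. Of 18 summits inside such members, 12 lay past the midpoint, a cut chosen after the values were seen. They belonged to Efna5 and Ntn4, with 3 each, Robo2, with 2, and Robo1, Sema3a, Sema6d and Nrp2, with 1 each. In the members of 100 kb and over 12 of 17 were past the midpoint, 70.6%, and in all such protein-coding genes 44.6% of 1301 were. The 2 summits of Robo2 lay at 80.4% and 75.0% of the gene length, and those near the end of Ntn4 at 84.9%, 90.9% and 95.9%. Summits of the same gene share their source, and 8 of the 12 came from 3 genes, so this is a description of a few loci. Some of these genes also have listed starts further in: at Sema6d the nearest one lay 43.3 kb after the summit, although the summit stood at 90.1% of the gene length.

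The window edge at 10 kb decided several cases. The member just inside it was Efna3, with its summit 5.90 kb away. Just outside were Sema4a at 10.7 kb, Plxnb1 at 11.4 kb, Ephb4 at 11.7 kb, Efna2 at 13.6 kb, Plxnb2 at 14.5 kb and Plxnd1 at 15.5 kb. Their nearest summits had scores from 6.56 to 29.6. Each of these 6 summits lay nearer to another protein-coding gene. The summits near Sema4a, Plxnb1 and Efna2 lay within 101 bases of Slc25a44, Ccdc51 and Cirbp, those near Ephb4 and Plxnb2 lay inside Slc12a9 and Dennd6b, and the summit near Plxnd1 was 7753 bases from Tmcc1. With a 20 kb window 23 members had a summit, 43.4%, against 31.5% of all protein-coding genes.

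**Figure D4:**
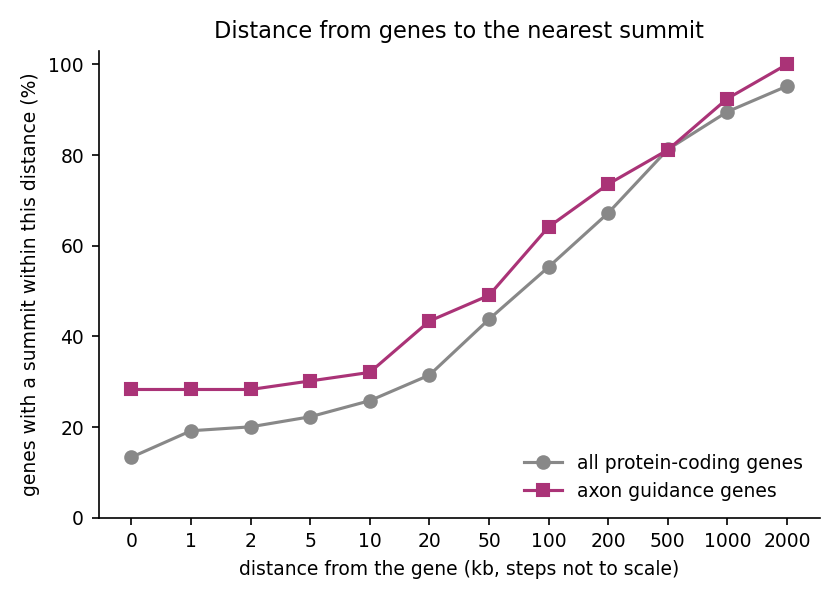
Share of genes with a summit within a given distance, in percent, for the 53 axon guidance genes (squares) and all protein-coding genes (circles), at steps of distance in kb that are not drawn to scale. The members start higher, at 28.3% against 13.4% for summits inside the gene, and both curves meet at 500 kb, at 81.1% and 81.2%.

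The curves are not matched for gene length, and longer genes more often had a summit. The members' median distance to the nearest summit was 60.9 kb, against 73.7 kb for all protein-coding genes. No summit lay within 500 kb of 10 members, 18.9%, against 18.8% of all genes. The 4 with none within 1 Mb were Nrp1, Ephb1, Epha5 and Unc5d, which is 7.55% of the members against 10.4% of all genes. None of the 5 members on chromosome 9, Robo3, Robo4, Ephb1, Sema3f and Plxnb1, had a summit, on a chromosome where 17.5% of all protein-coding genes had one.

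Other genes of the pathway, outside the 53, were counted from 2 lists. Of 18 further genes of the same families, 5 had a summit, 27.8%. Their median length was 16.2 kb, and 27.2% of all genes from 10 to 50 kb had one. Of 40 guidance receptors, ligands and signalling effectors, 18 had a summit, 45.0%. The median length of these was 121.3 kb, and 40.1% of all genes from 100 to 300 kb had one. Together 23 of 58 had one, 39.7%, beside 25.8% of all protein-coding genes. The median length of the 58 was 89.4 kb, and 32.2% of all genes from 50 to 100 kb had a summit. No difference was tested. The median score of their 37 summits was 13.2. The 8 with the highest scores were chosen by rule. Tiam1, an activator of Rac, had a summit inside the gene with a score of 238.1 and ranked 113 in the list. Rnd1, whose product is bound by plexins, followed with 59.9, then Cdon, a cell surface protein of the immunoglobulin superfamily, with 53.0, and Fyn, a Src family kinase, with 49.96. Farp1 had 33.8, and Trio, an exchange factor acting below Dcc, had 7 summits, the highest of 27.6 outside the gene within 1 kb of its start. The semaphorin genes Sema4g and Sema5b had 21.6 and 19.5. Thus 4 of these other genes exceeded the highest member score of 48.0.

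The count of members was followed through other settings, each with its own background. Summits of score 5 or more lay at 16 members, 30.2% against 23.7% of all genes. A minimum of 10 left 12, 22.6% against 18.2%, and a minimum of 20 left 5, 9.43% against 10.7%. These 5 were Efna5, Dcc, Robo2, Sema6a and Ntn4. In the gene body alone 15 members had a summit, 28.3% against 13.4%, the same number as within 2 kb, where 20.1% of all genes had one. Within 50 kb 26 members had a summit, 49.1% against 43.8%. When each summit counted for its nearest protein-coding gene alone, 16 members kept one, 30.2% against 19.2%; Efna3 lost its summit to Efna4. With chromosomes 9, 14, X and Y left out, 17 of 48 members had one, 35.4% against 28.7%. These backgrounds are all genes whatever their length, and the members' share was above them except at a score minimum of 20. At like length and with the 10 kb window, the gap was small for long genes only, as given above. It was 45.2% against 41.8% for genes of 100 kb and over, and 46.7% against 47.8% for those of 300 kb and over. Shorter members differed from their classes, with 0 of 18 against 28.3% from 10 to 100 kb and 3 of 4 against 17.3% under 10 kb. The first difference depended on the window: within 20 kb it was 6 of 18, 33.3% against 34.3%. The second rests on the neighbours Efna1, Efna3 and Efna4, with Efna3 and Efna4 on the same summit.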

How the data were processed

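NKX2.2 ChIP and input libraries of alphaTC6 cells were sequenced by the authors, with 2 samples in each group, grouped here by their titles. The submitters' processing notes name FastQC, Bowtie2, MACS2 and the build mm10. Versions, duplicate handling and whether replicates were pooled are not given in the sources used here. The deposited list gives 1 score per summit, read as −log10 of the q-value against input because the lowest was 2.03, just above a q threshold of 0.01. Positions count from 1 on GRCm38. Genes came from a RefSeq table of GRCm38.p6. Strand and transcript starts came from the RefSeq promoter table, which covered 17492 of the 21887 protein-coding genes. Genes with a summit were counted and set beside all protein-coding genes, whole and in length classes. No test was made, since the list holds no replicates and genes are not replicates. The members and the lists were chosen with earlier results of these data known. Genes were named by rule: every member, and at most 8 other pathway genes by score. Promoter sequences were printed for members with a summit within 500 bp of the promoter window. Alternatives covered the score minimum, window, merging within 500 bp and assignment to the nearest gene. Counting was tested on simulated data. The work was done with scipy 1.17.1, pandas 2.3.3, matplotlib 3.10.9 and numpy 2.4.6 under Python 3.11.15.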

Additional observations from a re-analysis of the deposited data

How the results depend on the processing

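No paired analysis was possible because each summit has a single score for the series, and for that reason no replicate could be left out. Merging summits within 500 bp removed 5 summits, none of them at a member. At a score minimum of 10 the members had 15 summits instead of 26, and 15 of the other pathway genes had a summit instead of 23. At a minimum of 20 there were 5 members with a summit instead of 17, 6 summits at members with a median score of 26.7, a density ratio of 0.289, 7 other pathway genes and 0 members with a summit at the gene start. Fewer summits enter by construction. A window of 50 kb gave 26 members, 49 summits and a density ratio of 0.717. With genes of 100 kb and over on both sides, an alternative added after seeing the data, the ratio was 0.639 instead of 0.427. The 95% interval of the ratio of 0.427 was 0.292 to 0.626 (Wilson, from the share of summits). This interval covers counting error only and treats summits as independent, although summits of the same gene share their source. It takes no account of gene length and is not a test. At 20 kb, also added later, 6 instead of 0 members from 10 to 100 kb had a summit. The ratio stayed below 1 in each of these settings. Depth is unknown, so a gene without a called peak may still be bound.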
